A study of Homo sapiens with 30 samples.

Results

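SETDB1-hairpin Caco2 cells sorted as KRT20-positive were compared with Caco2 cells that carried a scrambled hairpin and were kept in differentiation medium. The comparison uses 6 of the 30 libraries of the series, 3 per group, chosen by their titles, and covers all genes. It asks which transcripts differ in the KRT20-positive fraction beyond the levels that the medium alone brings to scramble cells. Transcripts were counted by QuantSeq, a method that sequences 1 tag at the 3′ end of each polyadenylated transcript, in 10 groups of 3 libraries from Caco2, HCT116 and SW480, all lines from colorectal cancers. Caco2 is an epithelial line from a human colon carcinoma that takes on features of small intestinal enterocytes and of fetal liver in culture. Cells were transduced with a hairpin vector and selected with puromycin. The differentiation medium contained troglitazone (10 uM), an agonist of the nuclear receptor PPARG, and 1α,25-dihydroxyvitamin D3 (25 nM), which activates the vitamin D receptor (VDR). Scramble cells in vehicle and SETDB1-hairpin cells of the KRT20-negative fraction, 3 libraries each, are given beside the comparison where they place a value. The labels name 1 SETDB1 hairpin and 1 scrambled hairpin. No label gives the culture medium of cells with the SETDB1 hairpin, and only these were sorted, so the hairpin, the sort and a difference in medium cannot be told apart in this comparison. Nor do the labels say whether replicates were separate cultures, so p-values measure the spread between these libraries, which may be technical.

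SETDB1 methylates histone H3 at lysine 9 (H3K9) up to the trimethyl state, working with its stabilising partner ATF7IP and with TRIM28, which brings it to sites bound by KRAB zinc finger proteins. Regions so marked, among them repeats and the clusters of zinc finger genes themselves, are kept silent. KRT20 is a filament-forming keratin of fully differentiated gut epithelium and is used as its marker. Enterocytes absorb lipid, bile salts, sugars and minerals through a brush border of microvilli, and detoxify what they absorb.

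Libraries held 6656420 to 8701880 counts in the 6 compared and 6538087 to 10074838 in the 12 of Caco2. Levels are given in CPM, the counts of a gene relative to the library total after scaling with TMM factors. In the 6 libraries 3 counts, the level that a count of 0 allows, are 0.345 to 0.451 CPM before that scaling. Such limits, and the counting intervals below, cover counting error only. Across genes, which are not independent replicates, Spearman coefficients between replicates were 0.991 to 0.992 for KRT20-positive cells and 0.991 to 0.993 for scramble cells in differentiation medium. The epithelial markers EPCAM, CDH1, KRT8, KRT18, VIL1 and CDH17 summed to 4243 to 4300 CPM in scramble cells and to 3242 to 3267 in KRT20-positive cells. EPCAM stood at 649 and 658 CPM in these groups. KRT20-negative replicate 3 stood apart from its group, with 585 CPM summed over 7 fibroblast markers against 37.0 to 52.9 in scramble cells and 38.6 to 56.6 in KRT20-positive cells. It is in neither group compared, but enters the low-count filter and the common estimate of the spread. It also enters every KRT20-negative mean and both comparisons with the KRT20-negative fraction given below. Without it 14186 genes were tested.

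SETDB1 (chromosome 1, 150926263 to 150964744, GRCh38), the gene the hairpin targets, was read at 32.7, 32.1 and 37.9 CPM in scramble cells in differentiation medium and at 19.7, 23.1 and 26.1 in KRT20-positive cells. All 3 KRT20-positive libraries lay below all 3 scramble libraries, and the transcript was 1.49-fold lower (log2 −0.57, SE 0.13, edgeR adjusted p = 0.00105). The KRT20-negative fraction stood at 19.5, 23.8 and 21.0 CPM and vehicle at 32.2, 31.2 and 28.9. KRT20 (chromosome 17, 40875941 to 40885227), the gene the sort is named after, was read at 8.84, 8.14 and 6.06 CPM in scramble cells in differentiation medium, 35.0, 37.8 and 25.9 in KRT20-positive cells and 1.03, 1.76 and 1.11 in KRT20-negative cells. Its levels fit the labels of the sort and are no result.

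Of 13968 tested genes edgeR called 4820 at 5 percent FDR, which is 34.5% of them. Higher in KRT20-positive cells were 2508 (18.0%) and lower 2312 (16.6%), and 810 of the former and 351 of the latter changed at least 2-fold. In 48.7% of tested genes the 3 libraries of one group all lay above the 3 of the other. The median log2 fold change over all tested genes was 0.01. These shares are the background against which the counts of each group of genes are to be read.

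**Figure D1:**
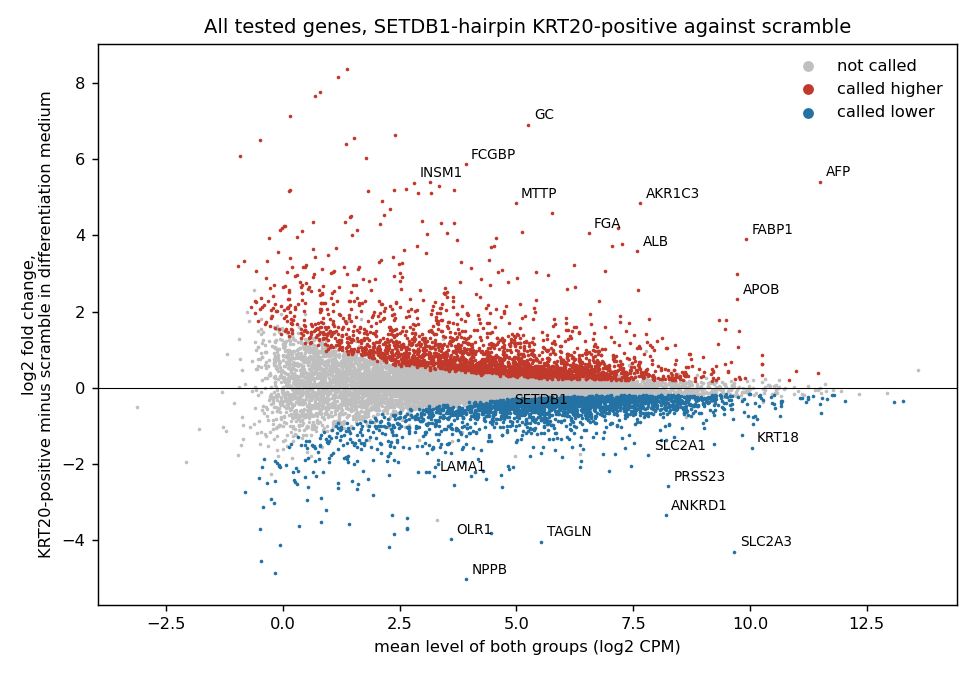
Each point is 1 of 13968 tested genes. The x axis is the mean level of the 2 groups in log2 CPM and the y axis the log2 fold change of KRT20-positive SETDB1-hairpin cells over scramble cells in differentiation medium, with 3 libraries a group. Red points (2508) were called higher and blue points (2312) lower at 5 percent FDR. AFP, FABP1 and APOB lie high at a high mean level, and SLC2A3, ANKRD1 and KRT18 lie low.

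Large increases at high levels were in genes for plasma proteins that fetal liver makes. Of 37 tested members of that list 32 rose and 0 fell (median log2 1.39). Without KRT20-positive replicate 1 or differentiation medium replicate 3, 1 member fell, and 2 fell in a fit without KRT20-negative replicate 3. ALB and AFP neighbour each other on chromosome 4, as do the fibrinogen chain genes FGA, FGB and FGG, and HNF1 family factors are textbook activators of the promoters of AFP, ALB and the fibrinogens. The 250 bases before the RefSeq start (GRCh38.p14) were searched on both strands for GTTAAT, the core of the HNF1 motif, whose reverse complement is ATTAAC. Promoters of AFP, ALB, FGA and APOH, and of FABP1, a fatty acid binding protein of enterocytes and hepatocytes, were picked for display from genes that rose because they hold a match, so the matches shown are no sample of the list. All are written 5′ to 3′ on the strand of the gene, with matches in capitals. They are chr4:73435971-73436220 (AFP, plus strand), chr4:73404037-73404286 (ALB, plus), chr4:154590743-154590992 (FGA, minus), chr17:66229416-66229665 (APOH, minus) and chr2:88128063-88128312 (FABP1, minus).
AFP: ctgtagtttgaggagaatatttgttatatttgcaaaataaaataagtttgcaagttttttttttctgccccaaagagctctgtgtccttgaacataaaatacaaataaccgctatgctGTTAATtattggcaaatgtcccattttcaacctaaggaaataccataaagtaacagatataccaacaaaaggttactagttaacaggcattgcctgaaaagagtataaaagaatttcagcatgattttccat
ALB: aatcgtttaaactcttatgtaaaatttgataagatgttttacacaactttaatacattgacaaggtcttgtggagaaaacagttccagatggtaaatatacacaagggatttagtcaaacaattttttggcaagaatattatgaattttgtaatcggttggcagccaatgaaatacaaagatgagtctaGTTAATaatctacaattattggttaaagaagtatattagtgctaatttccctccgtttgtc
FGA: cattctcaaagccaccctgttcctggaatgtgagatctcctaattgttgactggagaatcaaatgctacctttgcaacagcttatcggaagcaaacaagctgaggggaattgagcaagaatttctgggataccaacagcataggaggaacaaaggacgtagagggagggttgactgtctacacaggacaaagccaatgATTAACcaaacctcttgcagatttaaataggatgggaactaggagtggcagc
APOH: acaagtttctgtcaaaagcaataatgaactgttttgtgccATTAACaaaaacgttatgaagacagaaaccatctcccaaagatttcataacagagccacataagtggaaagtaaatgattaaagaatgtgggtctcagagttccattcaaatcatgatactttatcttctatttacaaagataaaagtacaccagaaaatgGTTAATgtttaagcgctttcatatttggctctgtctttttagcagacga
FABP1: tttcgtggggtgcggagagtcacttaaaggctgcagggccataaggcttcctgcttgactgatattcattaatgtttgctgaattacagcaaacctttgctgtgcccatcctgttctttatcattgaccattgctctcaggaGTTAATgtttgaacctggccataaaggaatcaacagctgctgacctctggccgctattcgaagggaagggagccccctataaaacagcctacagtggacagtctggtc
The match lies 132 bases before the start in AFP, 61 in ALB, 52 in FGA, 49 and 210 in APOH and 108 in FABP1. Of 27305 promoters of this length 6.22% hold the motif, and 3.56% of the 10129 matched to tested genes. In the plasma protein list 10 of 29 promoters hold it, 9 of them among the 25 of called genes. A match describes letters in this window and is no evidence of binding.

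AFP (chromosome 4, 73431138 to 73456174), the main plasma protein of the fetus, was read at 135, 123 and 143 CPM in scramble cells in differentiation medium and at 5944, 5541 and 5599 in KRT20-positive cells. The groups lie far apart, 42.7-fold (log2 5.41, SE 0.11, edgeR adjusted p = 9.39e-19). Vehicle stood at 404 CPM, above scramble cells in differentiation medium, and the KRT20-negative fraction at 4758. ALB, albumin, went from 31.0, 25.0 and 32.5 CPM to 352, 360.4 and 356 (log2 3.59, SE 0.10), with 99.1 in vehicle and 430.5 in KRT20-negative cells. GC (chromosome 4, 71741693 to 71804041), the vitamin D binding protein of plasma, was read at 0.707, 0.154 and 0.903 CPM in scramble cells, near the level of 3 counts, and at 74.3, 76.6 and 76.8 in KRT20-positive cells (log2 6.91, SE 0.21, edgeR adjusted p = 6.71e-18). Its KRT20-negative mean of 49.6 CPM lay between the others. GC had the largest log2 fold change of the called genes without overlap that reached a mean of 10 CPM in the higher group.

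The fibrinogen chains that form the clot rose together. FGA was read at 9.90, 9.98 and 11.9 CPM in scramble cells and 174, 173 and 182 in KRT20-positive cells (log2 4.06, SE 0.09, edgeR adjusted p = 6.81e-20), FGB at means of 18.6 and 247, and FGG at 9.29 and 75.7. In each of the 3 the KRT20-positive libraries all lay above the scramble libraries. The KRT20-negative fraction held still more, with means of 378, 298 and 152 CPM, and FGA and FGG were called lower in KRT20-positive than in KRT20-negative cells (edgeR adjusted p = 5.87e-10 and 0.000688), while FGB was not (0.154). APOH, a lipid-binding plasma glycoprotein, went from 21.9, 19.5 and 21.3 CPM to 293, 279.7 and 286 (log2 3.77, SE 0.10). TTR, the carrier of thyroid hormone, went from 177, 194 and 195 to 1466, 1503 and 1562 (log2 3.0, SE 0.07). The fetuin AHSG rose 3.45-fold, the protease inhibitor SERPINA1 3.56-fold, antiplasmin SERPINF2 5.53-fold and the urea cycle enzyme CPS1 7.89-fold. TF, transferrin, had 1 count in the 3 scramble libraries together and 114 in the KRT20-positive ones (115-fold, counting interval 20.3 to 4599).

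The same list had 32 members called higher and 1 lower when KRT20-negative cells were set against these scramble libraries. That comparison shares the scramble libraries, and in it 38.0% of the 13968 tested genes were called, 2739 higher and 2573 lower. These counts are the background for the KRT20-negative counts of other lists. Between the fractions, where 4.08% of tested genes were called, 2 members were higher and 11 lower in KRT20-positive cells. The 570 calls between fractions dropped to 297, 358 and 305 without KRT20-positive replicate 1, 2 and 3.

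**Figure D2:**
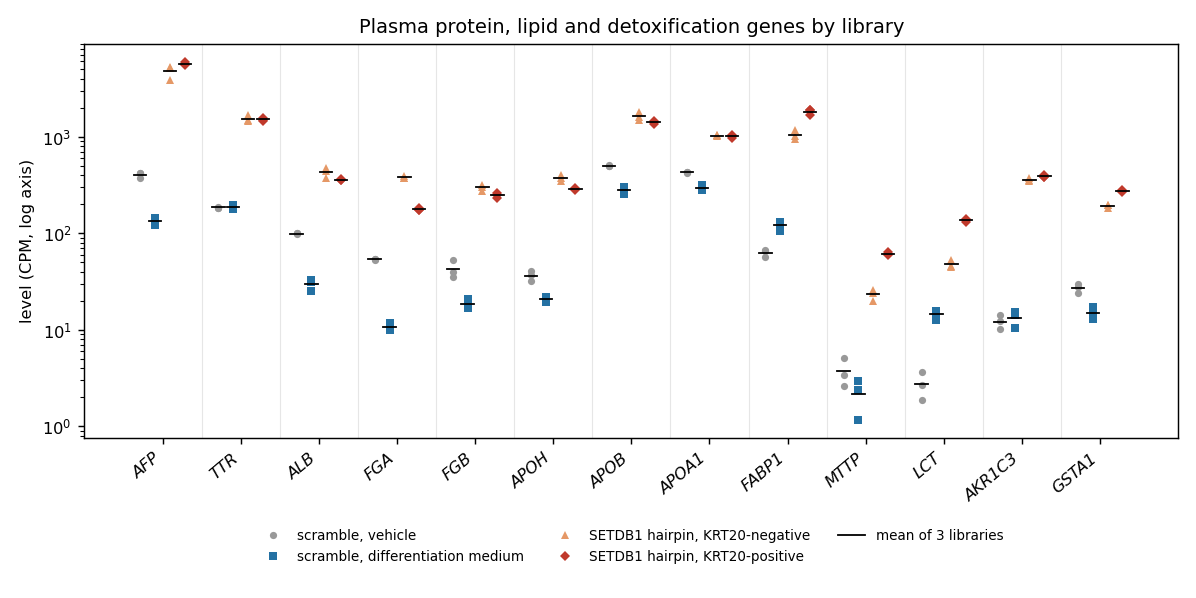
Level in CPM (log axis) of 13 genes that rose, with 1 point per library and a bar at the mean of 3 libraries, for scramble cells in vehicle and in differentiation medium and SETDB1-hairpin cells of the KRT20-negative and KRT20-positive fractions. All KRT20-positive libraries lie above all scramble libraries in differentiation medium, and FGA lies lower in KRT20-positive than in KRT20-negative cells, while MTTP and LCT lie higher.

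Genes of lipid absorption and lipoprotein assembly rose as a group, with 18 of 23 tested members higher and 1 lower (median log2 1.13). MTTP (chromosome 4, 99563761 to 99623999), which loads lipid onto nascent APOB, was read at 2.36, 2.92 and 1.16 CPM in scramble cells and at 60.3, 58.9 and 64.2 in KRT20-positive cells (log2 4.84, SE 0.21, edgeR adjusted p = 1.5e-14). It stood at 23.3 CPM in the KRT20-negative fraction, below every KRT20-positive library. FABP1 (chromosome 2, 88122982 to 88128116) was read at 129.5, 106 and 127 CPM in scramble cells and at 1895, 1659 and 1873 in KRT20-positive cells, 14.9-fold higher (SE of the log2 value 0.10). It too was higher in KRT20-positive than in KRT20-negative cells (log2 0.79, edgeR adjusted p = 1.35e-06). The structural proteins of lipoproteins rose too. APOB, the protein of chylomicrons and VLDL, had means of 283 CPM in scramble cells, 1626 in KRT20-negative and 1409.7 in KRT20-positive cells. APOA1, the protein of HDL, had 294, 1027 and 1006 in the same order, and neither was called between fractions (edgeR adjusted p = 0.135 and 0.881). APOA2, APOC3 and APOE rose 2.83-fold, 2.83-fold and 2.35-fold. FABP2, the other fatty acid binder of enterocytes, was low everywhere, at 0.33 CPM in scramble cells and 2.85 in KRT20-positive cells (edgeR adjusted p = 0.00025).

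Detoxifying enzymes formed the other large group of increases. Of 46 tested drug metabolism genes 32 rose and 4 fell (median log2 1.59). AKR1C3, a reductase of steroids and prostaglandins, was read at 15.4, 10.4 and 14.2 CPM in scramble cells and at 386, 381 and 396 in KRT20-positive cells (log2 4.84, SE 0.11, edgeR adjusted p = 6.81e-20). Its near-identical neighbours AKR1C1 and AKR1C2 rose 3.85-fold and 5.98-fold, and how tags shared by these genes were divided is not stated. The glutathione transferase GSTA1 went from 17.3, 12.9 and 14.2 CPM to 269, 282 and 272 (log2 4.20, SE 0.11), and its paralog GSTA2 rose 8.44-fold. Among the UGT genes, which couple glucuronic acid to bilirubin, steroids and drugs, UGT1A1 went from 0.507 to 17.4 CPM, UGT2B15 from 0.389 to 14.4 and UGT2B7 from 3.17 to 40.6. The UGT1A genes share their 3′ end, so a 3′ tag does not tell them apart. Carboxylesterase CES1 rose 3.52-fold, sulfotransferase SULT2A1 6.36-fold and alcohol dehydrogenase ADH4 8.93-fold. The efflux pump ABCB1 fell, from 104 to 76.4 CPM (log2 −0.44, SE 0.08), with 275 in vehicle. The KRT20-negative fraction had 29 members higher and 6 lower against the same scramble libraries, where 2739 of 13968 tested genes were higher and 2573 lower. CYP3A4, the main intestinal P450 and a VDR target, had 0.326 CPM in scramble cells, 0.593 in KRT20-negative and 2.34 in KRT20-positive cells (edgeR adjusted p = 0.00312 against scramble).

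Brush border hydrolases and transporters had 11 of 25 members higher and 2 lower (median log2 0.72, 1 lower without any 1 of the 6 libraries). Lactase LCT (chromosome 2, 135787840 to 135837180), which splits milk sugar, was read at 15.6, 15.2 and 12.8 CPM in scramble cells and at 140.0, 132 and 136 in KRT20-positive cells (log2 3.23, SE 0.12, edgeR adjusted p = 4.1e-16). LCT stepped through the 4 groups without overlap, with means of 2.76 in vehicle, 14.5 in differentiation medium, 47.8 in KRT20-negative and 136 in KRT20-positive cells. The bile salt importer SLC10A2 went from 0.118, 0.154 and 0.258 CPM to 7.68, 7.30 and 5.76 (log2 5.17, SE 0.58). It was also higher in KRT20-positive than in KRT20-negative cells (edgeR adjusted p = 0.000357). Meprin MEP1A rose from 0.751 to 7.81 CPM. Sucrase-isomaltase SI remained low, with 2 counts in the scramble libraries together and 44 in the KRT20-positive ones (22.3-fold, counting interval 5.81 to 189.7), a mean of 1.95 CPM. SLC7A7, the basolateral exporter of basic amino acids, fell from 544 to 390.0 CPM. In KRT20-negative cells 11 members of this list were higher and 3 lower against the same scramble libraries. Between the fractions 6 were higher and 0 lower in KRT20-positive cells.

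Genes that build microvilli had 14 of 24 members higher and 5 lower (median log2 0.38, 3 lower without differentiation medium replicate 1). The protocadherin-like CDHR5, which links the tips of microvilli, went from 27.9, 23.3 and 30.2 CPM to 86.0, 84.5 and 80.4 (log2 1.62, SE 0.10). The scaffold PDZD3 rose 3.51-fold and the brush border motor MYO1A 2.84-fold. Villin VIL1, the actin bundler of the microvillus core, was read at 88.5, 82.0 and 83.1 and 73.8, 85.8 and 81.5 CPM, and was not called (log2 −0.07, SE 0.08, edgeR adjusted p = 0.533). In KRT20-negative cells 11 members of this list were higher and 4 lower against the same scramble libraries. Between the fractions 3 were higher and 0 lower in KRT20-positive cells.

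Of 29 tested markers of mature colonocytes, 13 were higher and 6 lower (median log2 0.38). The share called lower lay near the 16.6% of all tested genes. MUC13, a membrane mucin, was read at 45.0, 45.9 and 46.8 CPM in scramble cells and at 144, 148 and 148 in KRT20-positive cells (log2 1.68, SE 0.09, edgeR adjusted p = 1.37e-12). The KRT20-negative libraries, at 42.4, 44.2 and 45.5, overlapped the scramble libraries, and the fractions differed (edgeR adjusted p = 1.34e-11). LGALS4, a galectin of the apical membrane, had the same pattern, with means of 0.915 CPM in scramble, 1.10 in KRT20-negative and 11.1 in KRT20-positive cells. CEACAM5, an adhesion molecule, went from 10.0 to 44.7 CPM with 6.51 in KRT20-negative cells, and the chloride exchanger SLC26A3 from 3.35 to 18.7. CEACAM6, a paralog of CEACAM5, went the other way, from 35.4, 28.9 and 30.7 CPM to 13.8, 11.5 and 10.3 (log2 −1.41, SE 0.17), and the counting may share tags between the paralogs. Of this list 15 members were higher and 0 lower in KRT20-positive than in KRT20-negative cells, where 4.08% of all tested genes were called in either direction.

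Of 7 tested members of the keratin list, which leaves out the sort gene KRT20, 4 fell and 0 rose (median log2 −0.65). KRT18 (chromosome 12, 52948871 to 52952901) was read at 1561, 1585 and 1579.5 CPM in scramble cells and at 507, 519 and 554 in KRT20-positive cells, 2.99-fold lower (SE of the log2 value 0.08, edgeR adjusted p = 1.1e-13). Its partner KRT8 fell 2.61-fold, from 376, 423 and 383 to 146, 159 and 147 CPM, and KRT19 1.57-fold. KRT8 and KRT18 have many processed pseudogenes, which can share tags. KRT20-negative cells stood at 506 CPM of KRT18 and 132 of KRT8, and neither differed between fractions by the test (edgeR adjusted p = 0.785 and 0.201). KRT8 and KRT18 are 2 of the 6 epithelial markers summed above.

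Genes of secretory cells rose as well. Goblet cell markers had 10 of 17 members higher and 1 lower (median log2 0.83, 2 lower without KRT20-positive replicate 1). FCGBP (chromosome 19, 39863323 to 39934626), a protein of intestinal mucus, was read at 0.118, 0.922 and 0.516 CPM in scramble cells and at 33.7, 28.8 and 26.1 in KRT20-positive cells (log2 5.88, SE 0.34, edgeR adjusted p = 2.07e-12). Its KRT20-negative mean was 3.52 CPM, so the KRT20-positive libraries stood clear of every other Caco2 group. The secreted mucin MUC2 reached 5.24 CPM from 0.326, BCAS1 rose 4.95-fold and the trefoil peptide TFF3 2.70-fold. Enteroendocrine genes had 11 of 16 members higher and 0 lower (median log2 1.34, 1 lower in a fit without KRT20-negative replicate 3). INSM1, a transcription factor of endocrine cells, was read at 0, 0.461 and 0.516 CPM in scramble cells and at 11.8, 15.7 and 13.4 in KRT20-positive cells (log2 5.39, SE 0.43). PAX4, which acts early in endocrine cells, had 2 counts in the scramble libraries together and 153 in the KRT20-positive ones (77.5-fold, counting interval 21.1 to 645). CHGA, the granule protein chromogranin A, had 0 counts in the scramble libraries and a mean of 5.21 CPM in KRT20-positive cells, at least 39.5-fold higher by 3 counts over the group. The KRT20-negative fraction had 11 members higher and 1 lower against the same scramble libraries, where 2739 of 13968 tested genes were higher and 2573 lower. INSM1 stood at 10.2 CPM and PAX4 at 7.69 in that fraction. In bulk libraries more cells of a type and more RNA per cell cannot be told apart.

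Paneth and antimicrobial genes had 8 of 16 members higher and 2 lower (median log2 0.46, 4 lower in a fit without KRT20-negative replicate 3). The phospholipase PLA2G2A went from 6.60, 7.22 and 7.74 CPM to 50.3, 47.9 and 49.1 (log2 2.77, SE 0.12), and the KRT20-negative fraction, at 108, lay above both. LCN2, which withholds iron from bacteria, rose 4.81-fold, and the nitric oxide synthase NOS2 fell 5.37-fold.

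Intestinal transcription factors had 19 of 42 members higher and 5 lower (median log2 0.32, 8 lower in a fit without KRT20-negative replicate 3). CDX2, which specifies intestine, went from 503 to 681 CPM (log2 0.44, SE 0.07) and HNF4A, a regulator of enterocyte and hepatocyte genes, from 334 to 487 (log2 0.54, SE 0.09). Larger differences were in its paralog HNF4G (3.57-fold), MAF (4.33-fold), PRDM1 (2.89-fold) and ISX (2.15-fold). SOX2, a factor of foregut and pluripotent cells, fell from 13.3, 10.9 and 12.1 CPM to 3.43, 4.51 and 5.24 (log2 −1.46, SE 0.18), with 45.4 in vehicle. In KRT20-negative cells 21 members of this list were higher and 7 lower against the same scramble libraries.

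The agonists in the medium have known target genes. CYP24A1, which inactivates the hormone and is a textbook VDR target, was read at 197, 193 and 192 CPM in scramble cells in differentiation medium and at 183, 185 and 170.1 in KRT20-positive cells. It was not called (log2 −0.11, SE 0.11, edgeR adjusted p = 0.443), and vehicle stood at 0.622 CPM. VDR itself fell from 22.7 to 15.8 CPM (log2 −0.53, SE 0.13). Of 27 tested VDR targets 13 rose and 4 fell (median log2 0.37, 2 lower without differentiation medium replicate 1). The manganese exporter SLC30A10 rose 4.74-fold, the acute phase protein ORM1 2.35-fold and the calcium channel TRPV6 4.59-fold. Of 40 tested PPAR targets, 18 rose and 6 fell (median log2 0.40). PCK1, the key enzyme of gluconeogenesis, was read at 3.77, 2.92 and 4.64 CPM in scramble cells and at 70.1, 64.7 and 62.6 in KRT20-positive cells (log2 4.10, SE 0.18, edgeR adjusted p = 1.42e-14). PDK4, which shuts pyruvate out of oxidation, rose 3.87-fold, and CPT1A, the gate of mitochondrial fatty acid oxidation, 1.32-fold. CPT1A stood at 40.3 CPM in vehicle, 174 in differentiation medium, 119.7 in KRT20-negative and 229.9 in KRT20-positive cells. FABP1 is also on the PPAR list.

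Zinc finger genes named ZNF, a class that SETDB1 marks, had 145 of 404 tested members higher and 7 lower (median log2 0.40). Many of these calls, such as those of ZNF420, ZNF552 and ZNF563, were lost when single libraries were left out. By place on the genome the ZNF genes divided as follows, with 2 of no matched position. Of 188 on chromosome 19, 92 rose (48.9%) and 1 fell, with a median log2 of 0.70, and 50 of the 92 rose at least 2-fold. Of 214 on other chromosomes, 51 rose (23.8%) and 6 fell, with a median of 0.21. The 742 other tested genes of chromosome 19 had 142 higher (19.1%), near the background of 18.0%, with a median of 0.05. Of these 742, 96 were lower, a smaller share than the background of 16.6%. By windows of 10 megabases of chromosome 19, the ZNF median was 1.13 from 20 to 30 (14 tested, 11 higher) and 0.69 from 50 to 60 (84 tested, 48 higher), the window with the most members. The KRT20-negative fraction had 157 members higher and 10 lower against the same scramble libraries, where 2739 of 13968 tested genes were higher and 2573 lower.

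ZNF69 (chromosome 19, 11887784 to 11914329) was read at 1.30, 0.768 and 0.774 CPM in scramble cells and at 14.9, 14.1 and 18.9 in KRT20-positive cells (log2 4.03, SE 0.29, edgeR adjusted p = 9.18e-11). ZNF91 (chromosome 19, 23304991 to 23395560), which binds SVA retroelements, went from 3.18, 3.23 and 4.90 CPM to 38.9, 36.8 and 40.6 (log2 3.35, SE 0.17). ZNF117 (chromosome 7, 64971776 to 65006684) lies outside chromosome 19 and went from 2.12, 3.07 and 3.48 CPM to 42.6, 46.8 and 43.4 (log2 3.94, SE 0.17). The KRT20-negative means of these 3 were 15.6, 29.6 and 38.0 CPM. ERV3-1, an endogenous retroviral gene at the ZNF117 locus whose tags may not be told apart from it, rose from 0.713 to 14.97 CPM. On chromosome 19 between 51804816 (the start of ZNF577) and 53133077 (the end of ZNF415), ZNF577 rose 6.19-fold, ZNF649 3.32-fold, ZNF615 5.83-fold, ZNF614 3.80-fold, ZNF320 3.26-fold, ZNF160 3.90-fold and ZNF415 4.32-fold. These genes were picked because they rose, and other ZNF genes of the stretch are not named. In the window from 50 to 60 megabases, which holds the stretch, 48 of 84 tested ZNF genes rose and 1 fell. That 1 was ZNF534, the only chromosome 19 member that fell (log2 −1.16, SE 0.25).

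**Figure D3:**
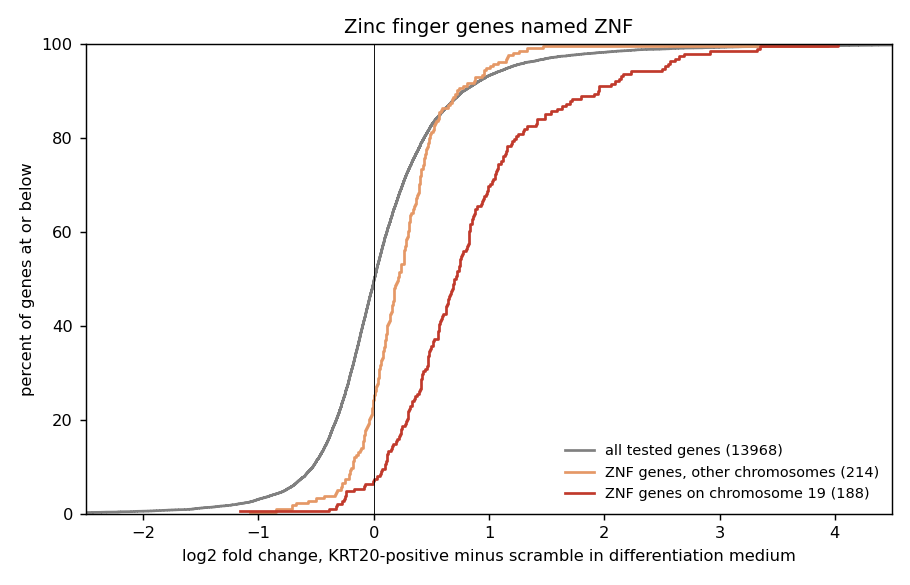
Cumulative share of genes (y axis, percent) at or below each log2 fold change of KRT20-positive over scramble cells in differentiation medium (x axis), for all 13968 tested genes, 214 ZNF genes of other chromosomes and 188 of chromosome 19. The curve of chromosome 19 lies to the right, with a median of 0.70 against 0.21 for the other ZNF genes and 0.01 for all genes.

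The H3K9 methylation machinery did not move as a group, with 7 of 29 members higher and 8 lower (median log2 −0.03, 0.03 when scaled by library totals). ATF7IP was read at 130.1, 132 and 140.3 CPM in scramble cells and at 292, 314 and 319 in KRT20-positive cells, 2.30-fold higher (SE of the log2 value 0.08, edgeR adjusted p = 1.24e-11). Its paralog ATF7IP2 rose 2.18-fold, and the DNA methyltransferase DNMT3B fell 2.44-fold, from 96.8 to 39.7 CPM. TRIM28, at 74.0 and 58.1 CPM, was called lower (log2 −0.35, edgeR adjusted p = 0.0118), but not without KRT20-positive replicate 3 (0.0875) or differentiation medium replicate 2 (0.0833).

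Interferon response and RNA sensing genes had 11 of 25 members higher and 0 lower (median log2 0.40). The count moved with single libraries, and 7 were called without KRT20-positive replicate 1 or differentiation medium replicate 3, and 6 without differentiation medium replicate 1 or replicate 2. The calls that held were small, with MAVS, the adaptor of cytosolic RNA sensing, 1.38-fold, DTX3L 1.50-fold and PARP9 1.60-fold higher. The sensors IFIH1, DDX58 and EIF2AK2 were not called (edgeR adjusted p = 0.117, 0.0711 and 0.646). IFIH1 had means of 3.92 and 5.85 CPM and DDX58 of 8.68 and 11.9.

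Of 36 tested genes of hypoxia and glycolysis, 19 fell and 5 rose (median log2 −0.47), and the glucose transporters SLC2A3 and SLC2A1 were among those that fell. SLC2A3 (chromosome 12, 7919230 to 7936275), a high-affinity glucose transporter whose tags its paralog SLC2A14 can share, was read at 1569.5, 1515 and 1568 CPM in scramble cells and at 68.8, 77.0 and 88.0 in KRT20-positive cells. It was 19.9-fold lower (log2 −4.31, SE 0.09, edgeR adjusted p = 7.24e-21). Levels descended through the groups, with 2309.5 CPM in vehicle and 159.9 in KRT20-negative cells, and the fractions differed (log2 −1.04, edgeR adjusted p = 9.11e-09). SLC2A1, the common glucose transporter, went from 353, 361 and 338 CPM to 104, 102 and 101 (log2 −1.77, SE 0.09), and vehicle, at 136, lay between. The glycolytic enzyme PFKP fell 2.96-fold, enolase ENO1 1.49-fold and lactate dehydrogenase LDHA 1.47-fold. STC2, a secreted glycoprotein, fell 2.74-fold. NDRG1 and TXNIP rose against the list, NDRG1, a stress gene, from 216, 196 and 218 CPM to 452, 454 and 478, and TXNIP, a brake on glucose uptake, from 60.4, 53.3 and 49.8 to 130.1, 165 and 151.

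ATF4 and unfolded protein response genes had 21 of 41 members lower and 3 higher (median log2 −0.33). ASNS, asparagine synthetase, went from 137, 119 and 133 CPM to 40.9, 37.9 and 47.7 (log2 −1.62, SE 0.11, edgeR adjusted p = 2.42e-11). The folate enzyme MTHFD2 fell 2.51-fold, the ATF4 feedback gene TRIB3 2.26-fold, the amino acid transporter SLC7A5 2.15-fold and ATF4 itself 1.44-fold. STC2 is on this list too. In KRT20-negative cells 20 of its members were lower and 6 higher against the same scramble libraries. Cholesterol and fatty acid synthesis had 20 of 34 members lower and 1 higher (median log2 −0.30, 2 higher without KRT20-positive replicate 2 or KRT20-negative replicate 3). The desaturase SCD was read at 1359, 1168 and 1341 CPM in scramble cells and at 519, 543 and 574 in KRT20-positive cells (log2 −1.24, SE 0.08), with 1894 in vehicle. Fatty acid synthase FASN fell 1.50-fold, squalene epoxidase SQLE 1.55-fold and the SREBP regulator INSIG1 1.52-fold. The sterol reductase TM7SF2 was the member that rose (1.87-fold). In KRT20-negative cells 16 members of the synthesis list were lower and 4 higher against the same scramble libraries.

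Actin genes and targets of serum response factor and of the YAP and TEAD factors fell broadly, with 29 of 38 members lower and 2 higher (median log2 −0.64, 1 higher without KRT20-positive replicate 3 or differentiation medium replicate 2). ANKRD1 is a textbook target of YAP and TEAD, and its promoter is shown because its 250 bases (chr10:90921088-90921337, minus strand, RefSeq on GRCh38.p14) hold 2 copies of GGAATG, the TEAD motif, in capitals. They lie 128 and 220 bases before the start.
ANKRD1: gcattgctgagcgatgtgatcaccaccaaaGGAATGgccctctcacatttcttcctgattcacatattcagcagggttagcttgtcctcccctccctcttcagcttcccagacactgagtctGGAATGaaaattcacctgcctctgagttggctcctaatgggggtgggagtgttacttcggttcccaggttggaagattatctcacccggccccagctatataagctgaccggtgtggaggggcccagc
GGAATG or its reverse complement CATTCC is in 11.9% of the 27305 promoters and 9.50% of those of tested genes, in 6 of 28 promoters of this list and in 5 of the 21 of members that fell.

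ANKRD1 was read at 574, 445 and 589 CPM in scramble cells and at 50.7, 47.1 and 59.7 in KRT20-positive cells, 10.2-fold lower (SE of the log2 value 0.17, edgeR adjusted p = 6.69e-09), with 266 in vehicle and 45.5 in KRT20-negative cells. TAGLN (chromosome 11, 117199321 to 117204782), an actin-binding protein of smooth muscle, went from 87.7, 90.2 and 83.5 CPM to 5.89, 4.91 and 4.98 (log2 −4.05, SE 0.14). NPPB, a natriuretic peptide, went from 33, 27.2 and 28.6 to 0.411, 1.06 and 1.18 (log2 −5.03, SE 0.27). In these 3 genes the KRT20-positive and KRT20-negative libraries overlapped, and none was called between fractions. Filamin FLNA fell 3.37-fold, the myosin light chain MYL9 3.51-fold, zyxin ZYX 2.39-fold, vinculin VCL 2.27-fold and beta-actin ACTB 1.69-fold. CTGF, itself a YAP target, went the other way, from 55.2, 47.2 and 42.8 CPM to 87.1, 95.8 and 87.7 (log2 0.90, SE 0.11).

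**Figure D4:**
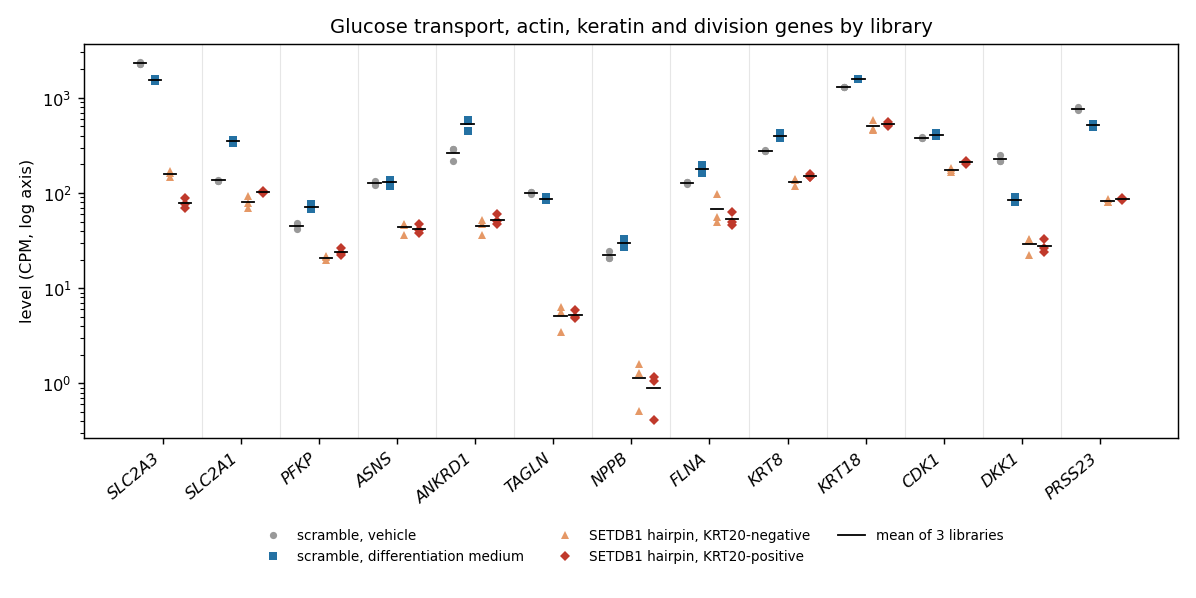
Level in CPM (log axis) of 13 genes that fell, with 1 point per library and a bar at the mean of 3 libraries, for the 4 Caco2 groups. All KRT20-positive libraries lie below all scramble libraries in differentiation medium. SLC2A3 is lower still in KRT20-positive than in KRT20-negative cells.

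Cell division genes fell. Of 44 genes of G2M and mitosis 40 fell and 0 rose (median log2 −0.52). CDK1, the kinase of mitotic entry, was read at 426, 403 and 399.6 CPM in scramble cells and at 210.4, 199.6 and 219 in KRT20-positive cells, 1.95-fold lower (SE of the log2 value 0.07, edgeR adjusted p = 1.05e-10). The KRT20-negative libraries stood at 175, 182 and 167 CPM and vehicle at 379.6, 384 and 375. Aurora kinases AURKA and AURKB fell 1.65-fold and 1.79-fold, cyclin CCNB1 1.67-fold and topoisomerase TOP2A 1.41-fold. DNA replication and S phase genes had 19 of 46 members lower and 0 higher (median log2 −0.22, 13 lower when scaled by library totals). The histone mRNA binder SLBP fell 2.01-fold, thymidine kinase TK1 1.63-fold and the helicase subunit MCM3 1.53-fold. Among p53 targets and arrest genes, 6 of 32 rose, near the 18.0% of all tested genes, and 10 fell (median log2 −0.02, 0.04 when scaled by library totals). Inhibitors of the cell cycle were among the 6 that rose. CDKN1C went from 11.3, 15.5 and 12.9 CPM to 31.1, 29.6 and 27.3 (log2 1.15, SE 0.15), the antiproliferative BTG2 rose 3.45-fold and CDKN1A 1.75-fold.

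Of 32 tested genes of crypt stem cells and Wnt signalling, 17 fell and 5 rose (median log2 −0.42, 3 higher without KRT20-positive replicate 1 or differentiation medium replicate 3). DKK1, a secreted Wnt inhibitor, was read at 91.2, 84.2 and 80.7 CPM in scramble cells and at 26.3, 33 and 23.7 in KRT20-positive cells (log2 −1.62, SE 0.13, edgeR adjusted p = 7.98e-09). The Wnt feedback gene AXIN2 fell 2.22-fold, SP5 2.17-fold, cyclin D1 (CCND1) 1.97-fold and the ligand BMP4 2.04-fold. LGR5, the receptor that marks crypt base stem cells, went from 11.6, 9.83 and 11.7 CPM to 6.17, 5.97 and 5.11 (log2 −0.94, SE 0.23). The KRT20-negative libraries, at 14.03, 11.9 and 7.19, lay above all KRT20-positive ones. ASCL2, the stem cell transcription factor, was read at 77.9 and 76.5 CPM and was not called (edgeR adjusted p = 0.865).

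**Figure D5:**
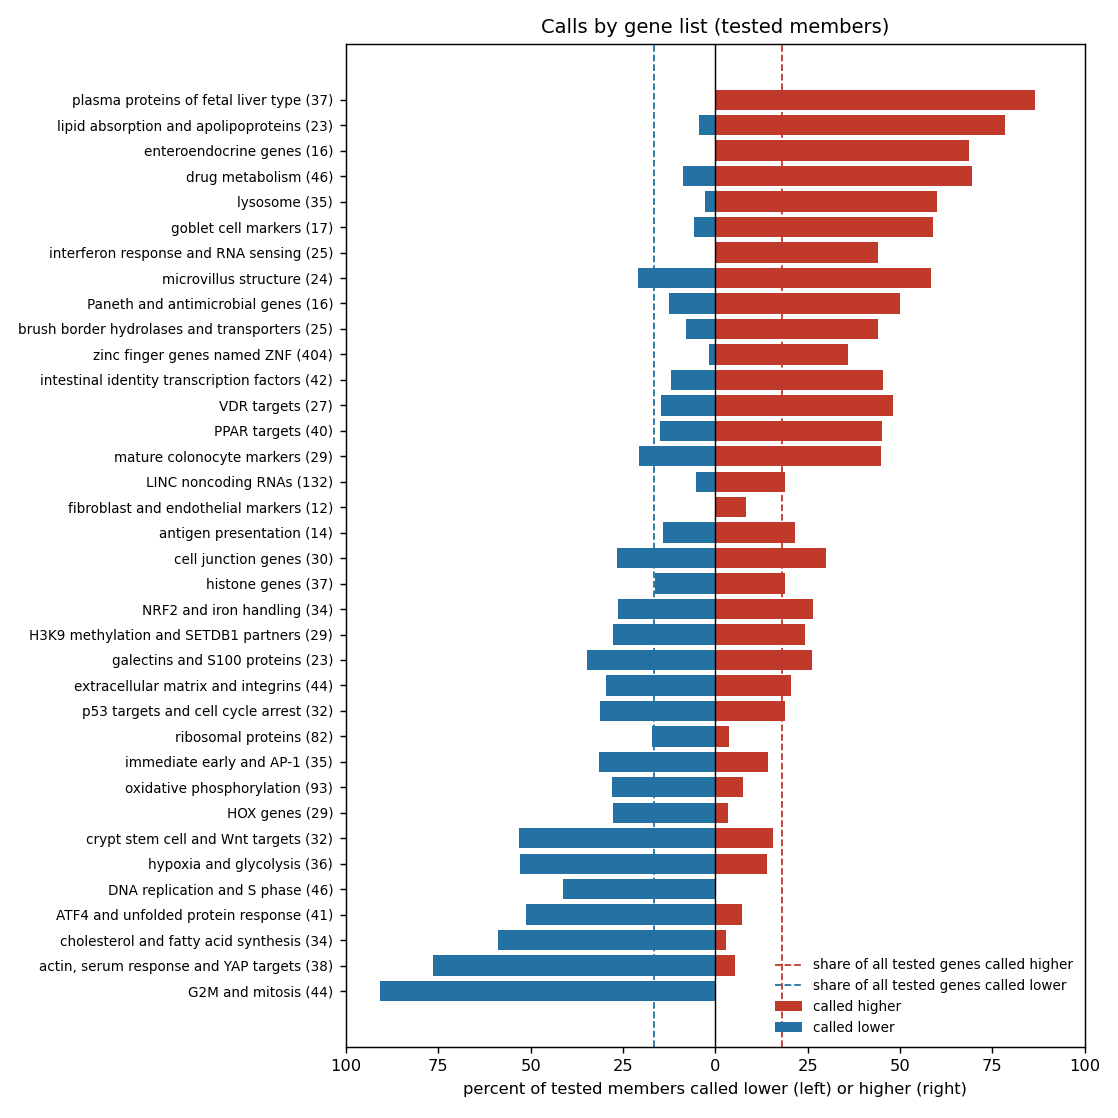
Percent of the tested members of each list (number tested in brackets) called lower (left, blue) or higher (right, red) in KRT20-positive cells against scramble cells in differentiation medium, for lists with at least 10 tested members. Dashed lines give the shares of all tested genes, 16.6% lower and 18.0% higher. Plasma protein, lipid and drug metabolism genes lie far to the right, and mitosis and actin genes far to the left.

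Of 44 tested extracellular matrix and integrin genes, 9 were higher, near the 18.0% of all tested genes, and 13 lower (median log2 −0.09). LAMA1, a laminin chain, was read at 13.7, 16.4 and 16.9 CPM in scramble cells, 3.29, 1.99 and 4.06 in KRT20-positive cells and 22.8, 26.7 and 27.3 in KRT20-negative cells. It fell against scramble (log2 −2.32, SE 0.20, edgeR adjusted p = 3.81e-09), while the KRT20-negative fraction stood above scramble. The collagen receptor ITGA2 fell 2.93-fold and the metalloproteinase inhibitor TIMP3 1.91-fold, and the protease ADAMTS15 rose 5.21-fold. COL6A1, a collagen chain on the list of fibroblast and endothelial markers, rose from 38.4, 45.6 and 39.7 CPM to 107, 105 and 95.8 (edgeR adjusted p = 0.00999), and it was the 1 of 12 tested members of that list called, with 2 higher and 1 lower in a fit without KRT20-negative replicate 3. Summed over the whole list of 25 markers the level was 92.3 to 116 CPM in scramble cells and 152 to 181 in KRT20-positive cells, with TEK at 0 in the scramble libraries. VIM stood at 4.07 and 3.40 CPM. Summed leukocyte markers (24) ran from 88.7 to 92.3 CPM in scramble cells and from 114 to 120 in KRT20-positive cells, with CD2, MS4A1, NKG7 and TYROBP at 0 in both groups. Of the 6 tested, 3 were called higher (1 without KRT20-positive replicate 2) and 0 lower. Whether other cell types play a part in any result was not tested.

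The rule for large changes also named genes outside the lists or outside the text so far. Higher were ACSM2B, a medium-chain acyl-CoA synthetase, with 2 counts in scramble and 234 in KRT20-positive libraries (118-fold, counting interval 32.4 to 984), the short-chain fatty acid receptor FFAR2 (0.314 to 12.1 CPM), the receptor GPR37 (0.255 to 10.2), MALRD1, a regulator of bile acid metabolism (4.28 to 104), and LOC101928834 (0.639 to 24.8). Lower were the lipoprotein receptor OLR1 (22.8 to 1.42 CPM), the cytoskeletal regulator DPYSL3 (40.7 to 2.90), IGFL2 (11.8 to 0.89), SH3TC2 (11.7 to 0.891) and FAM131B (11.6 to 1.08). The serine protease PRSS23 fell at a higher level, from 531, 494 and 532 CPM to 84.4, 87.2 and 87.9 (log2 −2.58, SE 0.07, edgeR adjusted p = 1.44e-18). The transcription factor TCF4 fell 6.14-fold, endothelial lipase LIPG 5.96-fold, the folate receptor FOLR1 5.32-fold and the scavenger receptor SCARA3 5.02-fold.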

How the data were processed

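Expression was measured by 3′ tag sequencing (QuantSeq) of total RNA. The authors deposited raw counts per gene symbol, 1 table per library, made with hg19, Bowtie2 and edgeR per the submitters' processing notes. Versions, strand and the handling of tags that match several genes are not given in the sources used here. Lines repeating a symbol (1561 lines, 286 symbols) were summed, leaving 24462 symbols, and 0 columns belonged to other samples. The 12 Caco2 libraries entered 1 model in R 4.3.3 (edgeR 4.0.16 with TMM factors, filterByExpr and robust two-sided quasi-likelihood tests), without a replicate block. Genes were called at 5 percent FDR over 13968 tested. The SE was taken as the absolute log2 value over the root of the F statistic. Levels are means of CPM, folds are ratios of means, and log2 values are fitted.

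The members and the 41 gene lists were chosen with earlier results of these data known. Named were SETDB1, KRT20, the 15 strongest changes on the log2 scale each way (called, at least 10 CPM in the higher group, no overlap), and called list members, the 6 with the smallest adjusted p first, with uncalled textbook members as values. To save space some genes under this rule were omitted, with their values known, and some are not reported here. With 1 to 3 counts in a group a 95 percent counting interval is given, and with 0 a bound from 3 counts over the group. Positions come from GENCODE 29 (GRCh38) by symbol for 13474 tested genes, and promoters from RefSeq.

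On simulated data with 13968 genes, 76% of 2-fold and 97% of 4-fold changes (100 genes each) were recovered, with 7 unchanged genes called. Counts were drawn with the spread that the model itself had estimated, and the changed genes came from those above a minimum level. All other genes were left unchanged, whereas 34.5% were called in the data, so these rates need not carry over. Alternatives were DESeq2 1.42.0, RLE factors, scaling by totals alone, all genes unfiltered, a replicate block and only the 6 libraries. Others were a fit without KRT20-negative replicate 3, and fits with each of the 6 compared libraries left out. The vehicle libraries and KRT20-negative replicates 1 and 2 were not left out. After seeing the data the fit without KRT20-negative replicate 3 was extended to the gene lists, and the alternatives to both comparisons with the KRT20-negative fraction.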

Additional observations from a re-analysis of the deposited data

How the results depend on the processing

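The total, higher and lower counts of calls in the comparison moved by less than 1.5 times under each alternative, while counts of some gene lists moved more, as given beside them. Higher and lower calls numbered 2475 and 2358 with RLE factors, 2943 and 1855 with library totals (61.3% of calls higher against 52.0%, with the median of all genes at log2 0.07), 2470 and 2442 without the low-count filter, 2333 and 2280 in DESeq2, 2809 and 2765 with only the 6 libraries, and 2793 and 2862 without KRT20-negative replicate 3. Leaving out 1 of the 6 compared libraries gave 3976 to 4181 calls, 2026 to 2155 of them higher and 1921 to 2026 lower. The SETDB1 log2 fold change was then −0.68 to −0.48 (edgeR adjusted p = 0.00104 to 0.0119). In these fits calls between fractions ranged from 297 to 553, with 297, 358 and 305 of 570 left without KRT20-positive replicates 1, 2 and 3. They numbered 651 without KRT20-negative replicate 3 and 803 with a replicate block. Calls of KRT20-negative cells against scramble ranged from 4448 to 5267 when 1 of the 6 was left out, and were 5782 with a replicate block. Of 815 called genes followed, 605 held in every alternative that gave them a value, 210 lost the call in at least 1 and 0 reversed. Of the 30 genes with the largest changes 0 lost it. Among the gene lists, scaling by library totals also lowered the falling oxidative phosphorylation genes from 26 to 17.

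The replicate numbers are not said to pair libraries. Deviations of same-numbered libraries correlated at 0.0452, 0.292 and 0.206 over 7418 genes, and each KRT20-positive library correlated best with its own number, while differentiation medium library 1 correlated more with KRT20-positive replicate 3 (0.142). With a replicate block 2717 genes were called higher and 2605 lower. Depth limits low genes, since 3 counts are 0.345 to 0.451 CPM before TMM scaling.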

Other observations

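Lysosomal genes rose together, 21 of 35 tested members higher and 1 lower (median log2 0.35, against 0.01 over all genes, 2 lower without differentiation medium replicate 1 or KRT20-negative replicate 3). The peptidase TPP1 went from 56.9, 66.8 and 60.9 CPM in scramble cells in differentiation medium to 116, 114 and 117 in KRT20-positive cells (log2 0.92, SE 0.08, edgeR adjusted p = 1.05e-08). Cathepsin A (CTSA) rose 1.85-fold, CLN3, a lysosomal membrane protein, 1.79-fold, cathepsin S (CTSS) 2.91-fold and TFEB, the transcription factor of lysosomal genes, 2.25-fold. In KRT20-negative cells 19 lysosomal genes were higher and 3 lower against the same scramble libraries. Of 34 tested genes of NRF2 and iron handling, 9 rose and 9 fell (median log2 −0.13, 5 lower when scaled by library totals and without KRT20-positive replicate 1 or differentiation medium replicate 1). Among those that rose, the iron store subunits FTH1 and FTL were 1.82-fold and 1.37-fold higher.

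HOX genes had 8 of 29 members lower and 1 higher (median log2 −0.21, 0 higher without KRT20-positive replicate 3 or differentiation medium replicate 1 or 3). HOXB8 was read at 2.95, 2.42 and 1.69 CPM in vehicle, 21.7, 18.1 and 25.3 in scramble cells in differentiation medium and 7.40, 8.09 and 6.81 in KRT20-positive cells (log2 −1.55, SE 0.19, edgeR adjusted p = 6.86e-07), and HOXB9 fell 1.55-fold. Chromosome 20 had 26.1% of its 376 tested genes called lower and 16.8% higher, beside 16.6% and 18.0% of all tested genes. Chromosome 18 had 21.2% lower and 12.5% higher of 184. Its share called lower was close to those of chromosomes 10 (21.1%), 1 (20.8%), 22 (20.4%) and 17 (20.1%). Junction genes split, with 9 of 30 higher and 8 lower. The connexin GJB1 rose from 147, 138 and 155 CPM to 311, 302 and 351, and the pore-forming claudin CLDN2 fell from 116, 113 and 122 to 64.6, 72.8 and 72.5, with 14.8 in vehicle.

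LINC noncoding RNAs had 25 of 132 members higher and 7 lower (median log2 0.24, 16 higher without KRT20-positive replicate 3). Over all tested genes 18.0% were called higher and 16.6% lower, and the LINC share called higher lies near the former. Oxidative phosphorylation genes had 26 of 93 lower and 7 higher, among the latter COX7C (1.70-fold). Ribosomal protein genes had 14 of 82 lower, near the share of all tested genes called lower, and 3 higher. With scaling by library totals 7 were lower and 6 higher. Without KRT20-positive replicate 2 or differentiation medium replicate 3, 7 were lower, and 8 without differentiation medium replicate 1. Without KRT20-positive replicate 1 or 3, or differentiation medium replicate 1, 1 was higher. The germline genes SYCP3 and STK31 were the 2 of 4 tested germline members that rose, SYCP3 1.85-fold.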
